A study of Mus musculus with 8 samples.

Results

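The FoxO genes Foxo1, Foxo3 and Foxo4 and the ubiquitin ligases Trim63, Fbxo32, Fbxo30, Fbxo21, Fbxo31 and Trim32 were followed 3 days after muscle injury. Mice labelled Psat1iKO were compared with mice labelled Ctrl (n = 4 libraries per genotype). These 9 genes were chosen with earlier results of these data known. All their rows were then taken by name, whatever their values, from a comparison of 36743 rows for 16573 gene symbols. The 9 genes hold 18 rows, since a gene can have several (Fbxo30, Fbxo30.1 and Fbxo30.2). Both groups carried the same notexin injury (2 mg/mL) of the tibialis anterior and extensor digitorum longus. Notexin is a snake venom enzyme that lyses muscle fibres. The labels give no strain, age, sex, Cre driver or inducing agent for Psat1iKO and no allele for Ctrl, and leave unsaid whether each library is a mouse of its own, so p-values reflect differences among libraries that could be technical. The cell type is labelled as sorted muscle stem cells, while the design text describes RNA from the muscles.

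FoxO proteins are forkhead transcription factors. When insulin or IGF signalling is active, the kinase AKT phosphorylates them, adaptor proteins of the Ywha family bind them, and they are held in the cytoplasm. When that signalling falls they enter the nucleus and switch on genes of protein breakdown, among them Trim63 (MuRF1) and Fbxo32 (atrogin-1), the ligases by which muscle wasting is usually followed. FoxO factors also help muscle stem cells to stay quiescent. Much of their control acts on the protein, which RNA levels do not show.

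Of the ligases, Trim63 and Trim32 are RING proteins of the TRIM family, and the Fbxo proteins are F-box proteins, which bring substrates to a cullin ligase built on Cul1, Skp1 and Rbx1. Trim63 has components of the thick filament as substrates. Fbxo32 has Myod1 and the translation factor Eif3f among its substrates. Fbxo30 (MUSA1) and Fbxo21 (SMART) are induced on denervation in mouse muscle, and BMP signalling holds Fbxo30 down. Fbxo31 directs breakdown of the cyclin Ccnd1. Trim32 is mutated in a human limb-girdle muscular dystrophy.

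The promoter of Trim63, a known FoxO target, is shown because it holds a FoxO-type motif. It is the stretch of 250 bases before the start of Trim63, chr4:134314870-134315119 on the plus strand (RefSeq, GRCm38.p6), with the motif in capitals:
Trim63: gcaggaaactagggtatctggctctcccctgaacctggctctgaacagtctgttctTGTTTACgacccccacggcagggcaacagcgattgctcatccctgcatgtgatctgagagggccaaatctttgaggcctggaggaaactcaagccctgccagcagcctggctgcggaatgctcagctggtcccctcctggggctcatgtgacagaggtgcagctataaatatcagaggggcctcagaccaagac

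The motif searched was TGTTTAC or its complement GTAAACA, the core that FoxO proteins bind. In Trim63 it spans positions -194 to -188 from the start. Of the 7 genes with a promoter in the RefSeq table, Trim63 was the 1 with a match in these 250 bases, and 3.17% of all 32851 promoter windows had one. Foxo4 and Fbxo32 were not searched. Of 25 listed FoxO target genes with a window, 2 held the motif, Txnip and Bcl2l11. Across the table, 358 measured genes had the motif in this window. Their median log2 fold change was -0.0091, with 0% called over leading rows. The 12412 measured genes without it had a median of -0.0048 and 0.234% called. At that share, 0% called among 358 does not set the genes with the motif apart. A match is a description of letters and does not show that a FoxO protein was bound.

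No row of the 9 genes passed the threshold between Psat1iKO and Ctrl. In the authors' DESeq2 comparison, 0 of 18 rows had an adjusted p under 0.05, where 0.656% of all rows did. At an unadjusted p under 0.05 the count was also 0 of 18, beside 6.04% of all rows. For each gene the row of highest mean is called its leading row. Adjusting over leading rows alone gave 0 of 9 genes, beside 0.223% of all genes. At an unadjusted p under 0.05 there were 0 of 9 leading rows against 4.09% of all. Of the 9 leading rows, 6 lay above 0 and 3 below. Their median log2 fold change (Psat1iKO minus Ctrl) was 0.04, and that of all 16573 leading rows was -0.01.

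Missing the threshold does not show equal levels, so the 95% intervals matter. For 6 of the 9 leading rows the interval lay inside a 1.5-fold change in either direction, and for 8 inside a 2-fold change. Trim63 was the exception to the wider bound. The plot of every row with its interval sets the tight leading rows beside the wide minor ones.

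**Figure D1:**
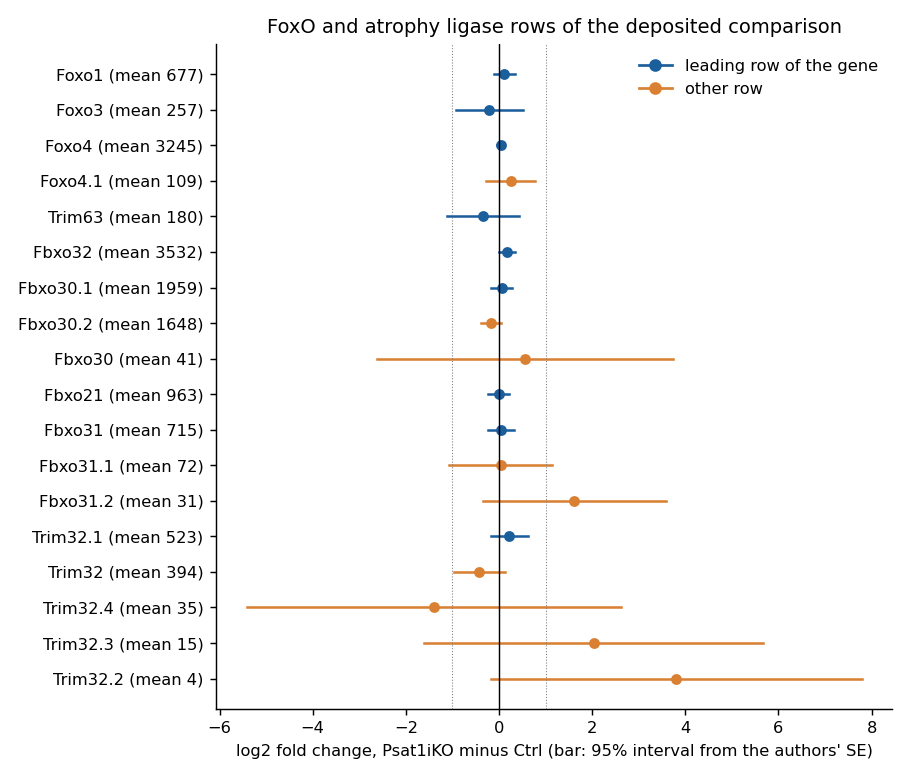
Each point is the log2 fold change (Psat1iKO minus Ctrl) of 1 of the 18 rows in the authors' deposited table, with a 95% interval from its DESeq2 SE, its mean normalized count beside its name and dotted lines at a 2-fold change. All 18 intervals span 0, and the 4 rows past a 2-fold change have means of 35.0 or less.

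For each row the table gives a fold change and 1 mean normalized count (scaled by DESeq2, all 8 libraries together), but no value per library. Group levels below are fitted means rebuilt from that mean and the fold change, so they carry no SD and whether libraries of the groups overlap is not known. Totals and shares of a gene add up its rows, which assumes that no read is counted in more than 1 of them. The sources used here do not say how reads were counted. Errors are the authors' standard errors of the log2 fold change.

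Foxo4 (chromosome X, 101254528 to 101260873, GRCm38), the FoxO gene with the highest counts, was the most precisely measured of all 9 genes. Its leading row had a fitted mean of 3208 in Ctrl and 3283 in Psat1iKO. The authors' deposited table gives a log2 fold change of 0.03 ± 0.0378 (SE) for it, and the 95% interval runs from 0.972-fold to 1.08-fold. A minor row, Foxo4.1, held 3.25% of the gene's total and stood at 99.6 in Ctrl and 119 in Psat1iKO. Both rows leaned the same way, and neither was called (authors' deposited table).

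Foxo1 (chromosome 3, 52268336 to 52353221), which in muscle is a main driver of the atrophy ligases, was fitted at 649.8 in Ctrl and 704 in Psat1iKO. In the authors' deposited table its log2 fold change was 0.12 ± 0.111 (p = 0.297 by DESeq2, unadjusted). The interval reached from 0.932-fold to 1.26-fold. Foxo3 (chromosome 10, 42181841 to 42276755), linked to both atrophy and stem cell quiescence, was fitted at 276 in Ctrl and 238 in Psat1iKO. Its log2 fold change in the authors' deposited table was -0.21 ± 0.368, with an interval from 0.524-fold to 1.42-fold. Foxo3 thus leaned the other way from Foxo1 and Foxo4, and the intervals of all 3 hold 0.

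Fbxo32 (chromosome 15, 58175879 to 58214932) had the smallest p of the 18 rows. Its fitted mean was 3321 in Ctrl and 3743 in Psat1iKO. The authors' deposited table lists it at 0.17 ± 0.0886 on the log2 scale, with DESeq2 p = 0.0512 before and 0.831 after adjustment. The interval ran from 0.999-fold to 1.27-fold.

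Trim63, usually read together with Fbxo32 as an atrophy marker, had the lowest mean of the 9 leading rows and leaned the opposite way. Its fitted mean was 201 in Ctrl and 159 in Psat1iKO. The authors' deposited table has it at -0.34 ± 0.396 on the log2 scale (unadjusted p = 0.39, DESeq2). With an interval from 0.462-fold to 1.35-fold, a change of 2-fold downwards is inside it. The fold changes of both classical atrophy ligases therefore had opposite signs, neither called.

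Trim63 lies on chromosome 4 from 134315120 to 134329629, which is 5.41 Mb from Pax7. Within 20 Mb of Pax7, 3.57% of 420 protein-coding genes were called over leading rows, and Trim63 was not among them. Of the 13557 measured protein-coding genes outside that window, 0.162% were called. Changed genes near Pax7 were already known from these data, so the higher share inside the window is not an independent result. Whether the region bears on Trim63 was not tested. Trim32 is on the same chromosome but 74.12 Mb from Pax7.

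Fbxo30 (chromosome 10, 11281330 to 11298052) was split almost evenly between a pair of rows that leaned in opposite directions. Fbxo30.1 held 53.7% of the gene's total and was fitted at 1919.6 in Ctrl and 1999 in Psat1iKO. The authors' deposited table puts that at 0.06 ± 0.113 on the log2 scale. Fbxo30.2 held 45.2% and went from 1744 to 1552, at -0.17 ± 0.113 in the same authors' deposited table. Summed over its 3 rows, the gene stood at 3697 in Ctrl and 3601 in Psat1iKO. The third row, Fbxo30, had a mean of 41.4 and an SE of 1.62 in the authors' deposited table, too wide to read.

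Fbxo21 (chromosome 5, 117976730 to 118010201) had the fold change nearest to 0 of the 9 leading rows. It was fitted at 966 in Ctrl and 959 in Psat1iKO. Its log2 fold change was -0.01 ± 0.116 in the authors' deposited table, with an interval from 0.848-fold to 1.16-fold.

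Fbxo31 (chromosome 8, 121549440 to 121578806) had 87.4% of its total in the leading row, at 704 in Ctrl and 726 in Psat1iKO. That row's log2 fold change was 0.04 ± 0.14 in the authors' deposited table. The row Fbxo31.1 was nearly level as well, at 71.1 and 72.9. Fbxo31.2 stood at 15.1 in Ctrl and 46.5 in Psat1iKO, with 1.62 ± 0.999 on the log2 scale and an unadjusted DESeq2 p of 0.106 in the authors' deposited table. It held 3.77% of the gene's total, and the log2 change of the total was 0.10.

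Trim32 (chromosome 4, 65604986 to 65616238) was spread over 5 rows, the most of the 9 genes, and its rows disagreed in sign. Trim32.1, with 53.8% of the total, was fitted at 483 in Ctrl and 563 in Psat1iKO (0.22 ± 0.203 in the authors' deposited table). The row Trim32, with 40.6%, went from 452 to 336 (-0.43 ± 0.279, unadjusted DESeq2 p of 0.125, authors' deposited table). Their leanings nearly cancelled: the gene's total was 993 in Ctrl and 950.1 in Psat1iKO (log2 ratio -0.06). The sign for Trim32 thus depends on whether the leading row or the total is read.

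The other Trim32 rows were small. Trim32.4 had a mean of 35.0, Trim32.3 of 15.4 and Trim32.2 of 3.89. Trim32.2 had the largest fold change among the 18 rows, 3.81 ± 2.03 on the log2 scale with DESeq2 p = 0.0605 before and 0.875 after adjustment, per the authors' deposited table. At such a mean its size is loosely set. Rows cannot be tied to a named isoform here, and the difference between rows of a gene was not tested, since the covariance of their errors is not in the table.

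**Figure D2:**
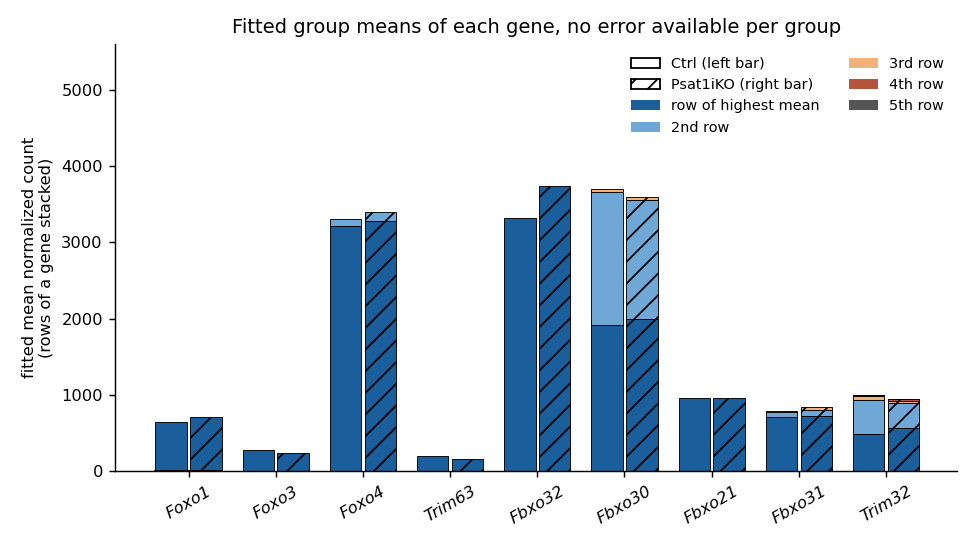
Bars give the fitted mean normalized count of each gene in Ctrl (left, plain) and Psat1iKO (right, hatched), with the rows of a gene stacked by mean; no error per group is available. Fbxo32 has the tallest Psat1iKO bar at 3743, Fbxo30 and Trim32 divide between a pair of large rows, and Trim63 is lowest at 201 and 159.

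Across levels, the 12 rows with a mean of at least 100 had a median absolute log2 fold change of 0.17, and the 6 rows under 100 had 1.51. Over all rows of the table the same medians were 0.10 and 0.62. Wide changes in the minor rows thus go with low counts here as in the whole table.

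Length matters for comparing levels between genes, since long transcripts gather more reads. Per kb of the longest coding transcript (GENCODE M21), the mean normalized count was 1062 for Foxo4, 721 for Fbxo30, 506 for Fbxo32, 305 for Trim32 and 243 for Fbxo21. It was 188 for Fbxo31, 95.3 for Trim63, 78.2 for Foxo1 and 37.5 for Foxo3. On this scale Foxo4 stood far above both other FoxO genes, and Fbxo32 above Trim63. The order holds only for that choice of length: per kb of the shortest coding transcript Foxo3 came to 504 and Foxo1 stayed at 78.2, and no spread over libraries can say which neighbours differ.

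The precision of the 9 genes also differed from that of rows with a like mean. The SE of Foxo4 was 0.539 times the median SE of 2960 leading rows whose mean was within 2-fold of its own. For Foxo3 the ratio was 1.77, and for Trim63 it was 1.58. The other 6 genes lay between 0.865 (Foxo1) and 1.4 (Trim32) times the median of their neighbours, with Fbxo30 at 1.39. Of the rows of like mean, 80.9% had a smaller SE than Foxo3, 76.2% than Trim63, 72.6% than Fbxo30 and 72.0% than Trim32. The share was 69.8% for Fbxo32, 57.7% for Fbxo31 and 53.8% for Fbxo21. All these genes lay above the median of their neighbours but inside their range, and only Foxo1 and Foxo4 lay below it.

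**Figure D3:**
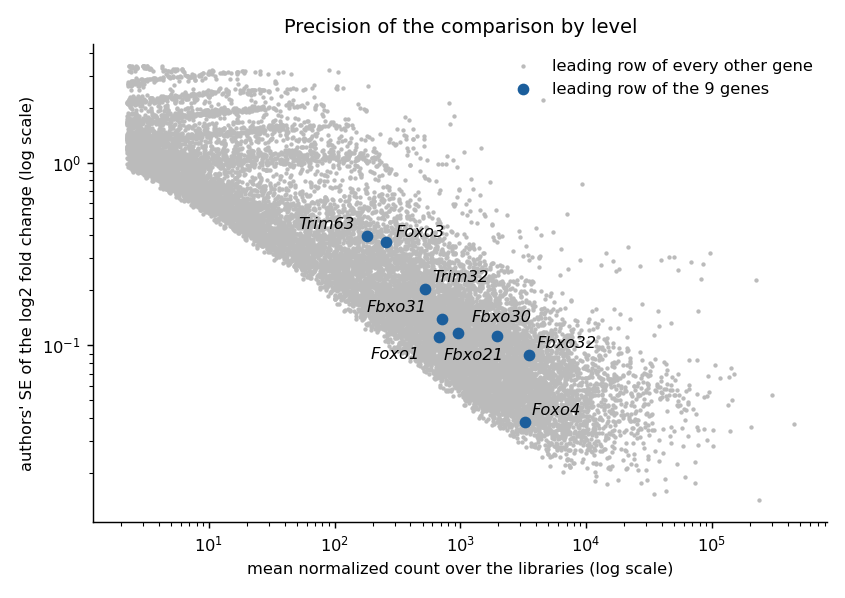
The DESeq2 SE of the log2 fold change (vertical, log scale) is plotted against the mean normalized count (horizontal, log scale) for the leading row of all genes (grey) and of the 9 genes (blue). Foxo4 sits in the lower part of the cloud with an SE of 0.0378, and 7.06% of leading rows of like mean have a smaller SE. Trim63 and Foxo3 lie in the upper part of the cloud at 0.396 and 0.368.

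Some sequence of the 9 genes is shared with other genes. Of the 50-base words in their transcripts, between 0% and 0.985% also occur in transcripts of other genes, highest in Fbxo21, which shares them with Gm5403. Exons of Foxo1 overlap those of the antisense gene Gm20402 over 674 of 8665 bases, and those of Fbxo32 overlap Gm15943 over 186 of 6976. Whether counting used strand is not given in the sources used here, so reads of these partners cannot be told apart in the overlaps. Trim32 lies inside the span of Astn2 on the opposite strand, with no shared exon base, and Fbxo31 likewise lies inside that of Gm20388, which has no row. The leading row of Astn2 had a mean of 2.55.

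Calls in the lists of genes around the pathway are set beside 0.223% of all leading rows and 0.656% of all rows. At those shares, 0 called in a list of this size does not set it apart from other genes. Foxo6, the remaining FoxO gene, is listed at -0.10 ± 0.179 in the authors' deposited table, so of 4 FoxO genes 0 were called. Among 26 regulators of FoxO, such as the AKT kinases, 0 leading rows were called, 18 lay below 0 and the median was -0.04. The smallest unadjusted p belonged to the insulin receptor Insr (0.25 ± 0.126, p = 0.046), Akt2 (0.16 ± 0.086, p = 0.0637) and the FoxO kinase Sgk1 (-0.13 ± 0.0883, p = 0.135), all by DESeq2 in the authors' deposited table. Summed over their rows, Insr stood at -0.01, Akt2 at 0.05 and Sgk1 at -0.14.

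Genes known as FoxO targets were measured for 28 of 28 listed, with 14 above 0, 14 below and a median of -0.01. Of their leading rows 0 were called, and 3 were below 0 at an unadjusted p under 0.05, where 4.09% of all leading rows passed that limit in either direction. These were the superoxide dismutase Sod2 (-0.09 ± 0.0342), the pyruvate dehydrogenase kinase Pdk4 (-0.10 ± 0.0423) and Sesn3, an inhibitor of TOR signalling (-0.14 ± 0.0671), all from the authors' deposited table. A minor row of the autophagy kinase Ulk1 was called higher: the authors' deposited table lists Ulk1.2 at 6.12 ± 1.4 on the log2 scale (DESeq2, adjusted p = 0.0039). Its fitted mean was 2.02 in Ctrl and 141 in Psat1iKO, and whether a single library carried the difference is not known. Ulk1.2 held 3.48% of the gene's total, and the leading row Ulk1 stood at 0.09 ± 0.111 in that authors' deposited table. Summed over its rows Ulk1 stood at 0.22.

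Other ubiquitin ligases of muscle had 29 measured of 31 listed names, 0 called and a median of -0.02. Smallest in p were Smurf1 (0.17 ± 0.101), which marks Smad proteins for breakdown, the p53 ligase Mdm2 (0.14 ± 0.109) and Wwp2 (-0.12 ± 0.107) in the authors' deposited table. Summed over its rows Smurf1 stood at 0.01. Fbxo40, a muscle F-box gene, had no row.

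The machinery that F-box ligases share was close to level. Of 19 genes of the cullin core, ubiquitin and its conjugating enzymes, leading rows ranged from -0.08 to 0.07 and 0 were called. Smallest in p were the conjugating enzymes Ube2d2a (-0.03 ± 0.0216) and Ube2n (-0.02 ± 0.0222) and the RING subunit Rbx1 (-0.08 ± 0.0577), from the authors' deposited table. A minor row of the deubiquitinase Usp19 was called lower: the authors' deposited table lists Usp19.4 at -9.35 ± 2.07 on the log2 scale (DESeq2, adjusted p = 0.0021), on 0.525% of the gene's total. Whether a single library carried that difference is not known. The 31 proteasome subunits ranged from -0.06 to 0.09 with 0 called. Psmd6 had the smallest p of them (-0.06 ± 0.0268, unadjusted DESeq2 p of 0.0297 in the authors' deposited table). Psmc4 (-0.03 ± 0.0226) and Psmd4 (0.09 ± 0.0752) came next in the authors' deposited table.

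Among 23 substrates and substrate candidates of the ligases, 1 leading row was called, beside 0.223% of all leading rows. Ligases act on the protein of a substrate, which these RNA levels do not show. Myod1, a factor of myoblast commitment and a known substrate of Fbxo32, rose by 0.16 ± 0.0386 on the log2 scale, (DESeq2, adjusted p = 0.0058, authors' deposited table). Its fitted mean was 21519.6 in Ctrl and 24117 in Psat1iKO. Next in p was Myh7, a slow myosin heavy chain, at 2.39 ± 1.1 with an unadjusted DESeq2 p of 0.0304, on a mean of 3.34 in the authors' deposited table. Dtnbp1, a substrate of Trim32, stood at -0.08 ± 0.0879 in the authors' deposited table.

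Further atrophy signals had 23 measured of 25, with 0 leading rows called and a median of -0.05. The activin receptor gene Acvr2b, through which myostatin acts, had rows of opposite sign. Its minor row Acvr2b.1 was called lower, at -10.08 ± 1.24 on 16.5% of the gene's total, and whether a single library carried this is not known. The leading row stood at 0.77 ± 0.332, not called, and the total at 0.10 (fold changes of both rows from the authors' deposited table). Next in p were the NF-kB subunit Relb (-0.21 ± 0.13) and the glucocorticoid receptor Nr3c1 (-0.35 ± 0.246), not called in the authors' deposited table.

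**Figure D4:**
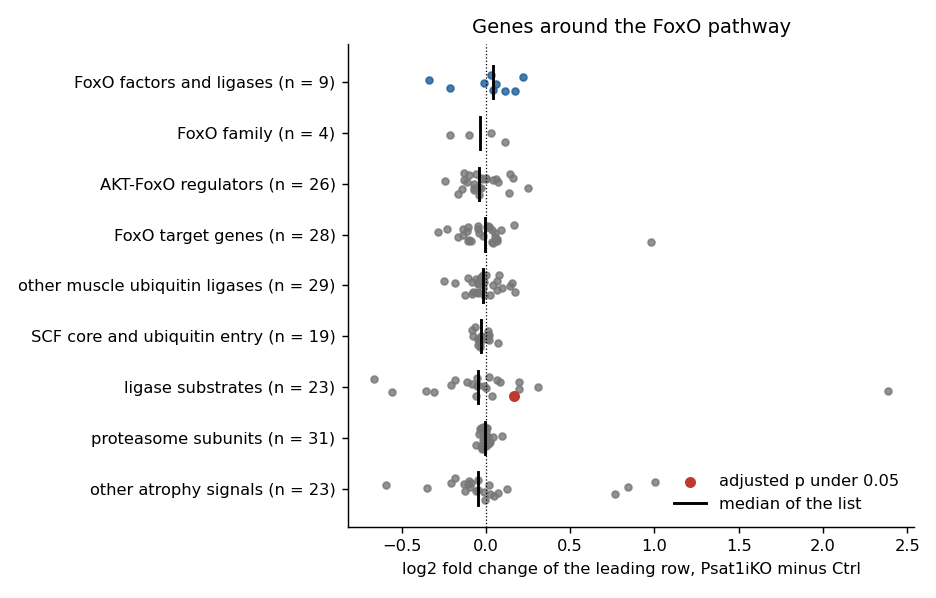
Each point is the log2 fold change (Psat1iKO minus Ctrl) of the leading row of 1 gene, for the 9 genes (blue) and 8 lists around them, with black bars at the medians and red for an adjusted p under 0.05. All medians lie between -0.05 and 0.04, and Myod1 at 0.16 is the 1 leading row in red.

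Psat1 itself, the targeted aminotransferase of serine synthesis, was lower: the authors' deposited table has its leading row Psat1.1 at -0.49 ± 0.0675 (DESeq2, adjusted p = 1.22e-09). Markers of muscle stem cells and myoblasts reached a median of 8192 normalized counts over 12 genes, Des and Itga7 highest, and Myod1 was the 1 called. Calls in this and the other marker lists are set beside 0.223% of all leading rows and 0.656% of all rows. At those shares, 0 called in a marker list does not show equal levels. Adult fibre markers, led by Eno3 and Actn3, had a median of 909 over 15 of 16 genes. Their summed fitted means were 67165 in Ctrl and 63161 in Psat1iKO, with 0 called. In bulk RNA, fewer cells of a type and less RNA per cell cannot be told apart.

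Markers of other cells ranged widely. The 11 measured of 13 macrophage and monocyte markers, led by Lyz2 and Cd14, had a median mean of 59.95 and all lay below 0. They summed to 3377 in Ctrl and 756 in Psat1iKO, with 0 called and Csf1r and C1qa without a row. Of the 11, 3 lay below 0 at an unadjusted p under 0.05, beside 4.09% of all leading rows in either direction. Pericyte and smooth muscle markers, led by Notch3 and Acta2, summed to 11073 and 13415, with 9 of 10 above 0 and the minor row Myh11.2 called higher. Fibro-adipogenic progenitor markers, led by Col3a1 and Gsn, summed to 18009 and 18647 over 8 of 10. Endothelial markers, led by Egfl7 and Vwf, summed to 359.5 and 308 over 9 of 9, with 8 below 0, a median log2 fold change of -0.69 and 0 called. Neutrophil markers, led by Cxcr2 and Csf3r, summed to 520.3 and 518 over 3 of 7. That sum rests mostly on a single gene, since the highest mean was 502 and the median 6.34. S100a8, Ly6g, Mpo and Retnlg had no row, so the sum does not show a level neutrophil signal. The part of these cells in the levels of the 9 genes was not tested.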

How the data were processed

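Poly(A) RNA was sequenced in 8 libraries, 4 labelled Ctrl and 4 labelled Psat1iKO, from 250 ng of RNA per the labels. The authors used HISAT2 2.2.1 and DESeq2 with the mm10 genome, per the submitters' processing notes. How reads were counted, filtered and assigned to strands is not given in the sources used here. The authors' deposited table gives per row a signal (mean of DESeq2-normalized counts, lowest 2.22), a log2 fold change with its SE, a Wald score, a p-value and an adjusted p. Depth per library is unknown.

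Log2 fold changes, coded by the authors as Ctrl over Psat1iKO, were turned to Psat1iKO minus Ctrl. Fitted means assume equal groups. Intervals are 95% normal intervals. The adjusted p equals Benjamini-Hochberg over all rows within 1.39e-05. Adjustment over all rows, fitted means and calls were tested on simulated data (Python 3.11.15, pandas 2.3.3, scipy 1.17.1). The same adjustment was used over leading rows without a test of its own. Annotation was GENCODE M21 (GRCm38). Since the table has no counts per library, the planned count test was not used.

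The genes and lists were chosen with earlier results of these data known. Named around the 9 genes were called list members, the 3 leading rows of smallest p per pathway list and the 2 markers of highest mean. Foxo6 is named as the remaining family member, and Fbxo40, Astn2, Txnip and Bcl2l11 were named after their values were seen. Alternatives were adjustment over rows with a mean of at least 100 or over leading rows, other thresholds, and gene totals or weighted means over rows.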

Additional observations from a re-analysis of the deposited data

How the results depend on the processing

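No alternative gave a call. The count of rows called stayed at 0 when p was adjusted over rows with a mean of at least 100 or over leading rows, at an adjusted p under 0.1, with a 2-fold filter and at an unadjusted p under 0.05, and the count of genes over leading rows behaved alike (7 alternatives in all). For the log2 fold change of the 4 genes with several rows, 10 of 12 alternatives moved the value by less than its SE. The exceptions were both Trim32, at -0.0639 for the total over all rows and -0.0742 for the total over rows with a mean of at least 10, against 0.22 for the leading row. The 2 rows that hold most of its total have opposite signs. The sign turned in 5 of 12 alternatives, in Fbxo30 and Trim32, neither called. The other 5 genes have 1 row. No paired analysis was possible because the table holds no values per library. For the same reason leaving out libraries and another normalization were not run, and library depth and spread are unknown.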
